A study of Homo sapiens with 18 samples.

Results

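Transcripts of 10 genes that encode subunits of the transcription factor AP-1 were followed in CLL cell lines before and after TLR9 stimulation: FOS, FOSB, FOSL1, FOSL2, JUN, JUNB, JUND, ATF3, BATF and BATF3. They were chosen by symbol from the 56609 gene symbols of the count table, and all 10 were found and passed the filter on low counts. HG3, MEC2 and PCL12 are lines of chronic lymphocytic leukemia (CLL), a neoplasia of B cells. Each line was left unstimulated or received 2.5 µg/ml of CpG-ODN2006 for 4 h, with 3 libraries per line and treatment and 18 in all. CpG-ODN2006 is a short synthetic DNA, recognised by TLR9, the endosomal sensor of unmethylated CpG. Every replicate series of a line held 1 stimulated and 1 unstimulated sample, which makes 9 replicate pairs. No label says that the replicates were separate cultures, so P values measure the spread between these samples, which may be technical.

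AP-1 proteins carry a basic region that touches DNA and a leucine zipper through which they pair. FOS proteins pair with JUN proteins, JUN proteins also pair among themselves, and the small BATF proteins, which lack a transactivation domain, pair with JUN proteins and can bind DNA together with IRF4 or IRF8 in lymphocytes. In B cells, receptors for antigen and Toll-like receptors reach AP-1 through MAP kinases. FOS, FOSB and JUN are classical immediate early genes, whose transcripts usually rise and decline within the first hours of a stimulus, so a single time point shows one moment of that course.

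Total counts per library ranged from 20382943 to 67308932. The B cell markers MS4A1, CD79A, CD79B, PAX5 and CD22 were present in every library. MS4A1, the gene of CD20, ranged from 597 to 1712 CPM (reads counted for a gene, relative to the total of its library) and CD79A, a subunit of the B cell receptor, from 200.3 to 1002 CPM. CD79B was at 59.98 CPM or more, PAX5 at 62.7 CPM or more and CD22 at 283 CPM or more. The 5 T and NK cell markers summed to at most 5.57 CPM and the 4 monocyte markers to at most 1.87 CPM. The fibroblast list summed to 5.34 to 74.6 CPM, nearly all of it COL1A1, with COL1A2 at most at 0.450 CPM and DCN at most at 0.342 CPM. The share of mitochondrial counts was 20.2% in HG3 unstimulated replicate 2 and 19.7% in MEC2 CpG replicate 2, against 2.82% to 9.28% in the other 16 libraries. PCL12 replicates 2 and 3 stood apart from PCL12 replicate 1. Over 45 genes that were high in MEC2 and low in PCL12 replicate 1, the 4 libraries of PCL12 replicates 2 and 3 held 29.0% to 31.3% of the MEC2 level, against 2.26% to 2.36% in PCL12 replicate 1, which was used to choose these genes, and 6.61% to 14.2% in HG3. For the AP-1 genes, PCL12 values that passed or came near the threshold are therefore also given from replicate 1 alone. Levels below are CPM scaled with TMM factors, and Log2FC is the fitted log2 fold change of CpG-stimulated over unstimulated cells.

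The first question was which AP-1 transcripts differed after 4 h of CpG within each line. With edgeR's quasi-likelihood test on replicate pairs and Benjamini-Hochberg adjustment over all 31872 genes tested, 1 of the 10 genes passed an adjusted p of 0.05 in MEC2, and it was higher (BATF). In MEC2, 0.333% of all genes passed that threshold, and 0.295% passed it as higher. None of the 10 passed in HG3, where 0.135% of all genes did, nor in PCL12, where 0.0471% did. At an unadjusted P value under 0.05, the numbers were 0 of 10 in HG3 (3.59% of all genes), 2 in MEC2 (3.41%) and 1 in PCL12 (1.69%). DESeq2 and limma-voom also gave 0 of 10 in HG3 and in PCL12. Of all 31872 genes, DESeq2 called only 2 in HG3 and 11 in PCL12, and limma-voom 0 and 3. These results therefore say little about the 10 genes. In the edgeR fit on replicate pairs, the spread of a gene is taken almost wholly from the trend shared by genes of like abundance. The SD of the 3 pair ratios is therefore given beside the SE for the main results. The libraries are bulk RNA, in which fewer responding cells and less RNA per cell cannot be told apart. The median Log2FC of the 10 genes was -0.08 in HG3, 0.29 in MEC2 and 0.01 in PCL12, beside 0, 0 and 0.03 for all tested genes.

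BATF, the member of the small BATF subfamily best known from activated lymphocytes, lies on chr14:75522455-75546993 of GRCh38, on the plus strand, and the annotation gives its main transcript 3 exons. In MEC2, BATF was at 244, 135 and 167 CPM after CpG in replicates 1, 2 and 3, and at 86.4, 74.6 and 107 CPM in the unstimulated partners. Every stimulated MEC2 library was above every unstimulated one. The Log2FC was 0.996 (SE 0.21, edgeR adjusted p = 0.00155), a 1.99-fold higher level, and the log2 ratios of the 3 pairs were 1.496, 0.86 and 0.63 (SD 0.45). An exact permutation test on the CPM values gave p = 0.1, the smallest that 3 against 3 libraries allow.

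In PCL12, BATF was at 293, 197 and 192 CPM after CpG and at 124, 153 and 100.01 CPM without it. These groups did not overlap either, and all 3 pairs had more BATF after CpG. The Log2FC was 0.85 (SE 0.21, P value 3.73e-05), and its edgeR adjusted p of 0.0595 missed the threshold. PCL12 replicate 1 alone gave a Log2FC of 1.25 (SE 0.65, edgeR adjusted p = 1), where the single pair was assumed to vary like the pairs of the other lines. With RLE factors in place of TMM the effect of BATF in PCL12 passed (0.85, edgeR adjusted p = 0.0450), as it did in a fit of the PCL12 libraries alone (0.85, edgeR adjusted p = 5.56e-06). Every other alternative left it above the threshold, among them DESeq2 (0.85, adjusted p = 0.445) and limma-voom (0.89, adjusted p = 0.673). In HG3, BATF was at 87.7, 165 and 132 CPM after CpG and at 66.7, 264 and 135 CPM without it. The HG3 groups overlapped, 1 of 3 pairs was higher after CpG, and the Log2FC was -0.11 with a 95% interval from -0.51 to 0.30. HG3 unstimulated replicate 2, the highest of these libraries, is the one with the 20.2% mitochondrial share, and without that pair the HG3 Log2FC was 0.18 (SE 0.20).

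**Figure D1:**
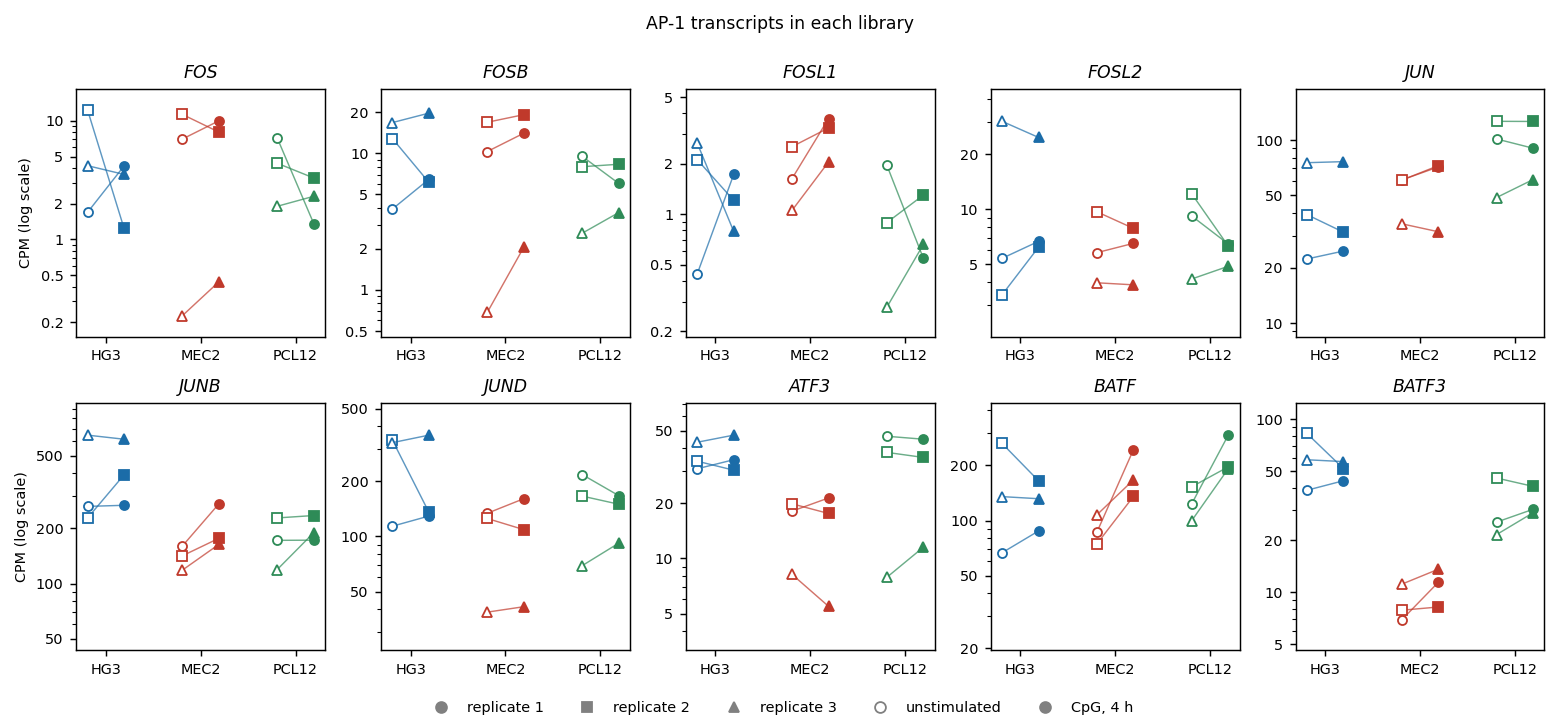
Level of each AP-1 transcript in each of the 18 libraries, as CPM on a log scale whose limits differ between genes. Open symbols are unstimulated and filled symbols CpG-stimulated libraries, symbol shape gives the replicate, and lines join the pairs. BATF is higher in all filled than in all open symbols in MEC2 and PCL12, and in MEC2 the triangles of FOS and FOSB sit far below the other replicates.

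The BATF call in MEC2 depended on the test and on replicate 1. It was lost without the replicate pairs (Log2FC 1.02, edgeR adjusted p = 1), with limma-voom (1.03, adjusted p = 0.201), with the stricter filter filterByExpr (0.98, edgeR adjusted p = 0.323), in a fit of the MEC2 libraries alone (0.98, edgeR adjusted p = 0.410) and without MEC2 replicate 1 (0.74, edgeR adjusted p = 0.404). It held with DESeq2 (0.99, adjusted p = 0.0188). Over the whole table, 106 genes passed in MEC2 in the fit on replicate pairs and 101 with DESeq2. Only 1 passed without the pairs, 9 with limma-voom, 5 with filterByExpr and 3 in the fit of MEC2 alone, so these losses are not particular to BATF. Without MEC2 replicate 1, 78 genes passed. The difference of the CpG effect, MEC2 minus HG3, was 1.10 on the log2 scale (SE 0.29, 95% interval 0.53 to 1.67, P value 0.000154), and the edgeR adjusted p of this difference was 0.0864. It passed without HG3 replicate 1 (1.34, edgeR adjusted p = 0.0375) and without MEC2 replicate 2 (1.17, edgeR adjusted p = 0.0153). In the other alternatives the adjusted p was 0.0506 or higher, and without MEC2 replicate 1 it was 0.843 (0.82, edgeR). None of the 10 genes passed the adjusted threshold for a difference between MEC2 and HG3 (0.141% of all genes did), between PCL12 and HG3 (0.069%) or between PCL12 and MEC2 (0.0126%). By the definition of a DEG used in the study, a nominal P value under 0.01 with |Log2FC| ≥ 1, 1 of 10 met it for the difference between MEC2 and HG3, and this was BATF (0.875% of all genes met it). For the effect within MEC2, BATF had a P value of 1.51e-06 but a Log2FC just under 1, and no AP-1 gene met the definition within HG3, MEC2 or PCL12, where 0.731%, 0.555% and 0.242% of all genes did. The difference between PCL12 and HG3 was 0.96 (SE 0.29, P value 0.001, edgeR adjusted p = 0.405), and that between PCL12 and MEC2 was -0.15 with a 95% interval from -0.71 to 0.42.

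The promoter of BATF is shown with those of FOS, its neighbour at a distance of 240 kb on the same strand, and of JUN, because BATF carried the one call and FOS and JUN are the prototypes of AP-1. The windows run from 250 bases before to 50 after the start site and come from RefSeq on GRCh38.p14, which held a window for 8 of the 10 genes (9 windows, since ATF3 has 2). Capitals mark the classical AP-1 site TGANTCA, the octamer TGACNTCA and the shorter motif TGACG, searched on both strands, where the shorter motif can also lie inside the octamer. The windows are chr14:75522219-75522518 (plus strand) for BATF, chr14:75278578-75278877 (plus strand) for FOS and chr1:58783998-58784297 (minus strand) for JUN.
BATF: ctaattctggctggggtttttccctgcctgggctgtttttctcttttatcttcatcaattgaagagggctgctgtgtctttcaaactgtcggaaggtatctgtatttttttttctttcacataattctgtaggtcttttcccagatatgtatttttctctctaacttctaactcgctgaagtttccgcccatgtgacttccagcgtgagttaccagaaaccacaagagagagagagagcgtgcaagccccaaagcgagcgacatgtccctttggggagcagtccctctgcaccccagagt
FOS: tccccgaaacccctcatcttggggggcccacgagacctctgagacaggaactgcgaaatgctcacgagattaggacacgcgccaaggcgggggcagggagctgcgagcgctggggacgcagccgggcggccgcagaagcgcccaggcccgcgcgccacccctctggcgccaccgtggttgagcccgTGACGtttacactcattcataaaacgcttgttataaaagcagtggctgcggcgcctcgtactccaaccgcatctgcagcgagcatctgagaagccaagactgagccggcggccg
JUN: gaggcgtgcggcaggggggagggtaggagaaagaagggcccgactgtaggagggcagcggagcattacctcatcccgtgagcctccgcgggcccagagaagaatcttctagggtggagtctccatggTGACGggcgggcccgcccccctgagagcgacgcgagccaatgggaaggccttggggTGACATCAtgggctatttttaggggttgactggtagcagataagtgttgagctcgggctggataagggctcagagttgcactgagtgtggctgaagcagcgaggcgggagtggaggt

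The BATF window held none of these motifs. The FOS window held TGACG at -64 to -60 from the start site. The JUN window held TGACNTCA at -67 to -60 and TGACG at -123 to -119. Of all 35116 promoter windows, 24.6% held TGACG, 7.72% held TGACNTCA and 7.71% held TGANTCA. The motif TGACG was present for FOS, FOSB, FOSL2, JUN, JUNB and JUND, TGACNTCA for JUN, JUND and ATF3, and TGANTCA for FOSL2. No window of the 8 genes held the consensus of NF-κB sites (11.3% of all promoters), a CArG box bound by serum response factor (1.29%) or the STAT motif TTCNNNGAA (7.66%). Sequence outside these windows was not searched, so a site more than 250 bases before the start site would be missed. The absence of a motif here therefore does not mean that the gene lacks such a site. A match is a stretch of letters and not a measured binding site.

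Among the JUN genes, JUNB, which can restrain the activity of JUN on some promoters, was the other gene without overlap in MEC2. It was at 273, 177 and 164 CPM after CpG and at 160, 142 and 118 CPM in unstimulated MEC2, so each stimulated library was above each unstimulated one. The Log2FC was 0.52 (SE 0.21, SD of the pair ratios 0.23), with an edgeR adjusted p of 0.864. Libraries without overlap, with the stimulated ones higher, were seen for 2 of the 10 genes in MEC2 (JUNB and BATF; 2.52% of all genes), for 1 in PCL12 (BATF; 2.53%) and for 0 in HG3 (2.14%). In PCL12, JUNB was at 173, 235 and 190 CPM after CpG and at 172, 228 and 119 CPM without it (Log2FC 0.24, SE 0.21). In HG3 it was at 268, 393 and 615 CPM after CpG and at 264, 228 and 647 CPM without it (Log2FC 0.24, SE 0.21). Both lines had overlapping groups, and neither effect passed the test. An exon of HOOK2 overlaps JUNB on the opposite strand, and since the strand setting of the counting is not given in the sources used here, reads of both loci may not be fully separated.

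JUN, the founding partner of FOS, did not pass the test in any line. Its level after CpG was 71.3, 72.4 and 31.6 CPM in MEC2, beside 60.5, 60.4 and 34.9 CPM in the unstimulated partners. JUN was at 24.7, 31.4 and 76.2 CPM after CpG in HG3, beside 22.4, 39.2 and 75.2 CPM without it. In PCL12 it was at 90.2, 126 and 60.9 CPM after CpG, beside 101, 127 and 48.5 CPM without it. The groups overlapped in all 3 lines, and the log2 ratios of the 9 pairs lay between -0.32 and 0.33. The 95% intervals of its Log2FC were -0.46 to 0.36 for HG3, -0.29 to 0.53 for MEC2 and -0.35 to 0.46 for PCL12. JUND, the JUN gene that is usually expressed without a stimulus, was at 161, 109 and 41.3 CPM after CpG in MEC2 and at 134, 125 and 38.6 CPM without it (Log2FC 0.05, SE 0.20). In PCL12, JUND was at 167, 150.2 and 91.9 CPM after CpG and at 218, 166 and 69.2 CPM without it (Log2FC -0.04, SE 0.20). Replicate 3 was the lowest of both groups in MEC2 and in PCL12. In HG3, JUND was at 129, 136 and 358 CPM after CpG and at 114, 336 and 326 CPM without it. Only the second pair, whose unstimulated library has the high mitochondrial share, was lower after CpG (log2 ratio -1.31), and without it the Log2FC moved from -0.32 to 0.16 (SE 0.20).

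The FOS genes had wide spreads. FOS, the classical immediate early gene, was at 9.99, 8.03 and 0.440 CPM after CpG in MEC2 and at 7.02, 11.3 and 0.228 CPM in the unstimulated partners. Both libraries of MEC2 replicate 3 were thus far below the other 4, at 9 counts and 8 counts. The Log2FC was 0.22 in MEC2, with a 95% interval from -0.69 to 1.12. In HG3, FOS was at 4.16, 1.24 and 3.53 CPM after CpG and at 1.69, 12.3 and 4.18 CPM without it. The pairs went both ways, with log2 ratios of 1.30, -3.31 and -0.24, and without the second pair the Log2FC changed from -0.65 to 0.52 (SE 0.49). In PCL12, FOS was at 1.36, 3.30 and 2.31 CPM after CpG and at 7.15, 4.39 and 1.90 CPM without it (Log2FC -0.83, SE 0.46, edgeR adjusted p = 1). This value rested on replicate 1: it was -0.07 (SE 0.54) without that pair and -2.39 from that pair alone.

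FOSB, a close relative of FOS, was at 14.0, 19.2 and 2.05 CPM after CpG in MEC2 and at 10.3, 16.9 and 0.684 CPM without it. All 3 MEC2 pairs had more FOSB after CpG, but the groups overlapped, and the Log2FC of 0.65 (SE 0.34, edgeR adjusted p = 1) did not pass. Replicate 3 was again the lowest of both MEC2 groups. In HG3, FOSB was at 6.46, 6.14 and 19.7 CPM after CpG and at 3.91, 12.8 and 16.8 CPM without it (Log2FC -0.03, SE 0.33). In PCL12 it was at 6.04, 8.32 and 3.68 CPM after CpG and at 9.52, 7.99 and 2.6 CPM without it (Log2FC -0.04, SE 0.33). Neither line had groups that stood apart. FOSL1, which encodes FRA1, ranged from 0.279 to 3.73 CPM over the 18 libraries and FOSL2, which encodes FRA2, from 3.40 to 30.2 CPM. FOSL1 was higher in all 3 MEC2 pairs (Log2FC 0.84, SE 0.68), with a 95% interval from -0.50 to 2.18 at these low counts. It was higher in 1 of 3 HG3 pairs (Log2FC -0.27, SE 0.76) and in 2 of 3 PCL12 pairs (Log2FC -0.03, SE 0.80). With 1 pair left out, the Log2FC of FOSL1 ran from -1.28 to 0.57 in HG3 and from -0.68 to 0.88 in PCL12. FOSL2 had Log2FC values of 0.28 (SE 0.33) in HG3, -0.06 (SE 0.33) in MEC2 and -0.41 (SE 0.33) in PCL12.

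ATF3, a stress-induced factor that pairs with JUN proteins, had Log2FC values of 0.04 (SE 0.23) in HG3, -0.16 (SE 0.24) in MEC2 and 0.13 (SE 0.23) in PCL12. In HG3 its 6 libraries lay between 30.4 and 47.2 CPM. In MEC2 replicate 3 it was at 5.47 CPM after CpG and 8.18 CPM without it, below the 17.6 to 21.4 CPM of the other 4 MEC2 libraries. In PCL12 replicate 3 it was at 11.5 CPM after CpG and 7.89 CPM without it, below the 35.6 to 46.5 CPM of the other 4. BATF3, known from dendritic cells and activated lymphocytes, lies 65.6 kb from ATF3 on chromosome 1. In MEC2, BATF3 was at 11.4, 8.22 and 13.6 CPM after CpG and at 6.93, 7.88 and 11.1 CPM without it. All 3 MEC2 pairs had more BATF3 after CpG, but the groups overlapped and the Log2FC of 0.36 (SE 0.23, edgeR adjusted p = 1) did not pass. After CpG, BATF3 was at 44.05, 51.8 and 56.8 CPM in HG3 (Log2FC -0.17, SE 0.22) and at 30.1, 40.9 and 28.8 CPM in PCL12 (Log2FC 0.17, SE 0.22).

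The second question was how AP-1 levels differed between the lines without stimulation. At an edgeR adjusted p under 0.05, 2 of the 10 genes were lower in MEC2 than in HG3 (BATF3 and JUNB). Of all genes, 4.97% were lower and 9.78% differed. JUNB was the 1 gene that passed as lower in PCL12 than in HG3 (4.57% of all genes lower, 9.44% different). BATF3 was the 1 gene that passed as higher in PCL12 than in MEC2 (1.53% higher, 2.05% different). Whether or not they passed, fitted differences were positive for 3 of 10 genes in MEC2 against HG3. They were positive for 1 in PCL12 against HG3 and for 7 in PCL12 against MEC2. The medians of the 10 genes were -0.90, -0.68 and 0.44, beside 0 for all tested genes in each comparison. In this fit, 1 mean was given to each of the 6 groups, and the pairs were not used.

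BATF3 had the clearest order. Unstimulated HG3 was at 38.8, 82.6 and 58.2 CPM, PCL12 at 25.4, 45.7 and 21.5 CPM and MEC2 at 6.93, 7.88 and 11.1 CPM. MEC2 did not overlap with either of the other lines, and the share of all genes without such overlap was not computed. BATF3 in MEC2 was lower than in HG3 by a log2 difference of -2.79 (SE 0.33, edgeR adjusted p = 1.17e-06), and PCL12 was higher than MEC2 by 1.83 (SE 0.32, edgeR adjusted p = 0.00102). With PCL12 replicate 1 as the single library of its group, the latter difference was 1.57 (SE 0.41, edgeR adjusted p = 0.0420). Here and in the other comparisons of unstimulated PCL12 replicate 1, the lone library was assumed to vary like the libraries of the other groups, so such a p says nothing of the spread within PCL12. PCL12 and HG3, the neighbours at the top of this order, overlapped, and PCL12 against HG3 gave a log2 difference of -0.96 (SE 0.31, edgeR adjusted p = 0.0504). This value lay at the threshold, and it passed with DESeq2 (-0.995, adjusted p = 0.0292) and with limma-voom (-0.94, adjusted p = 0.0434). When 1 library was left out, its edgeR adjusted p ran from 0.0113 (without PCL12 unstimulated replicate 2) to 0.270 (without HG3 unstimulated replicate 2), and from PCL12 replicate 1 alone it was 0.194.

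JUNB was at 264, 228 and 647 CPM in unstimulated HG3, at 172, 228 and 119 CPM in PCL12 and at 160, 142 and 118 CPM in MEC2. MEC2 lay below HG3 without overlap for JUNB as well. The third HG3 library stood well above the rest. JUNB was lower than in HG3 by a log2 difference of -1.44 in MEC2 (SE 0.35, edgeR adjusted p = 0.0075) and of -1.13 in PCL12 (SE 0.35, edgeR adjusted p = 0.0388). Without HG3 unstimulated replicate 3, the differences were -0.81 (edgeR adjusted p = 0.122) and -0.51 (edgeR adjusted p = 0.375), so both calls rested on that library. From PCL12 replicate 1 alone, the difference from HG3 was -1.13 (SE 0.54, edgeR adjusted p = 0.356). The calls of JUNB in PCL12 were also lost without PCL12 unstimulated replicate 1 (-1.11, edgeR adjusted p = 0.105) or replicate 3 (-0.89, edgeR adjusted p = 0.185).

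The other 8 genes did not pass in any pair of lines in this fit. BATF without stimulation was at 66.7 to 264 CPM in HG3, 74.6 to 107 CPM in MEC2 and 100.01 to 153 CPM in PCL12, and MEC2 against HG3 gave a log2 difference of -0.79 (SE 0.35, edgeR adjusted p = 0.188). Without HG3 unstimulated replicate 1, this difference passed (-1.16, edgeR adjusted p = 0.0236), and without HG3 unstimulated replicate 2 it was -0.15 (edgeR adjusted p = 0.901). For MEC2 against HG3, JUND gave -1.38 (SE 0.64, edgeR adjusted p = 0.229) and ATF3 gave -1.23 (SE 0.62, edgeR adjusted p = 0.261). DESeq2 called JUND (-1.42, adjusted p = 0.0449). With no filter, edgeR called JUND (adjusted p = 1.86e-05), ATF3 (adjusted p = 0.00179) and BATF (adjusted p = 0.0447) for MEC2 against HG3. It also called JUN for PCL12 against HG3 (adjusted p = 0.00534) and ATF3 for PCL12 against MEC2 (adjusted p = 0.0383). That setting called 3729, 3775 and 1353 genes of the whole table in these comparisons. For PCL12 against HG3, JUN gave 1.01 (SE 0.51, edgeR adjusted p = 0.258). For FOS, the 95% interval of MEC2 against HG3 ran from -2.29 to 2.36.

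**Figure D2:**
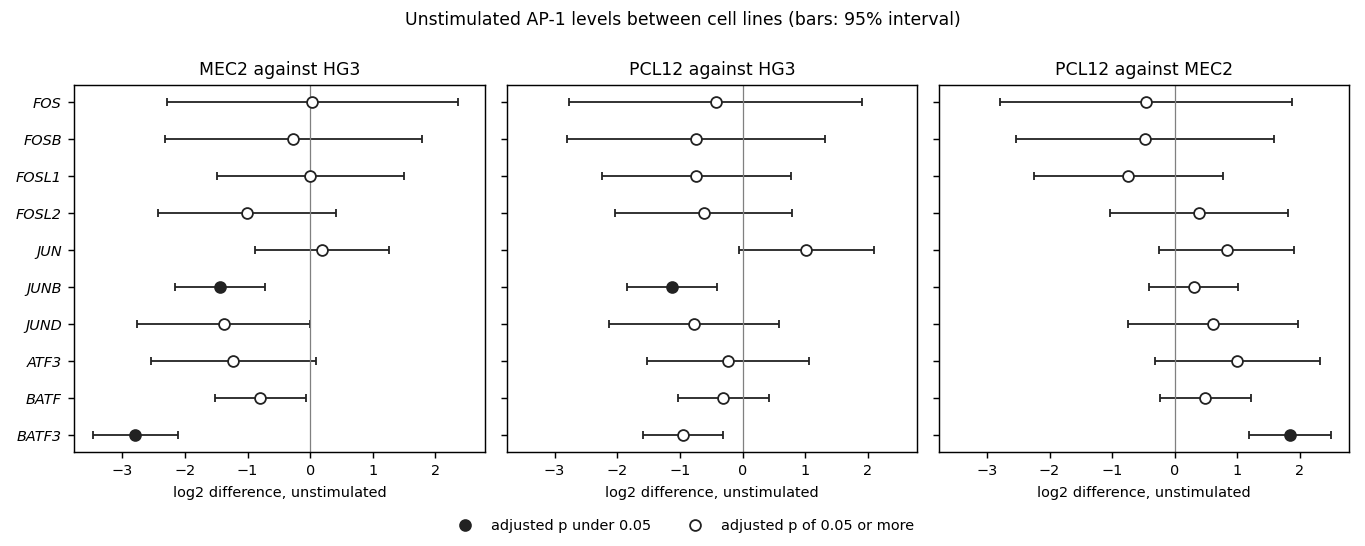
Log2 difference of unstimulated levels between cell lines for the 10 AP-1 genes, with 95% intervals. Filled points passed an adjusted p of 0.05: BATF3 (-2.79) and JUNB (-1.44) for MEC2 against HG3, JUNB (-1.13) for PCL12 against HG3 and BATF3 (1.83) for PCL12 against MEC2.

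AP-1 transcripts had wide ranges between unstimulated replicates. The range of log2 levels over the 3 unstimulated libraries had a median over the 10 genes of 1.86 in HG3, 1.25 in MEC2 and 1.59 in PCL12. Over the 13991 genes that averaged 1 CPM or more, the medians were 0.95, 0.53 and 0.61. The widest ranges belonged to FOS (5.32) and FOSB (4.52) in MEC2, both set by replicate 3. For PCL12, ATF3 showed the same replicate as the lowest, with 46.5, 38.0 and 7.89 CPM. In HG3, replicate 3 was instead the highest for JUN (22.4, 39.2 and 75.2 CPM) and for FOSL2 (5.39, 3.40 and 30.2 CPM).

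Deviations from the mean of a line were shared between some genes. Over the 18 libraries, Pearson's r of these deviations was 0.90 for FOSB with JUND, 0.88 for FOS with FOSB, 0.88 for JUN with JUND and 0.80 for FOS with JUND. Between BATF and BATF3 it was 0.70, and between BATF and FOS 0.04. BATF3 and FOS gave -0.10. These values are descriptions without a test, since the libraries share replicate pairs, depth and the CpG stimulus.

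**Figure D3:**
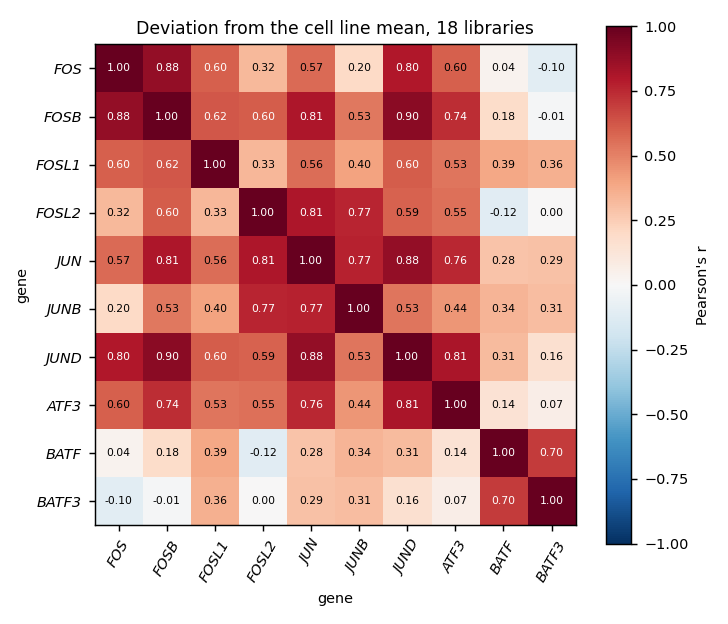
Pearson's r between AP-1 genes over 18 libraries, computed on log2 CPM after the mean of each cell line was removed; colour and the printed number give r. FOS, FOSB, JUN, JUND and ATF3 give r from 0.57 to 0.90 with each other, and BATF gives 0.70 with BATF3 and 0.04 with FOS.

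The genes whose log2 level was most like that of each AP-1 gene were taken among genes that averaged 5 CPM or more, by Pearson's r over the 18 libraries. For BATF they were LSR (0.76) and CHST10 (0.75), and for FOSL1 EGR1 (0.77) and ASB6 (0.76). BATF3 was followed most closely by TNFSF4 (0.96) and RASSF4 (0.95), and JUNB by MARCKS (0.96) and IRF2BP2 (0.95). JUN was most like MAFF (0.93), itself a small leucine zipper gene, and CARS (0.92). FOS was nearest to GPX2 (0.90) and GDF9 (0.87), FOSB to SLC16A3 (0.93) and KMT5B (0.90), and FOSL2 to ADGRE5 (0.90) and CSRNP1 (0.89). JUND was nearest to YPEL5 (0.91) and AC027307.2 (0.91), and ATF3 to TBC1D17 (0.93) and OPTN (0.91). Differences between lines enter these values.

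Other genes of the pathway were followed as lists. Of 19 further leucine zipper genes that can pair with AP-1 proteins, such as ATF2, CREB1, MAFF and BACH2, 0 passed the adjusted threshold for a CpG effect in HG3, MEC2 or PCL12 with edgeR, DESeq2 or limma-voom. Over the whole table, the calls in these lines were 43, 106 and 15 with edgeR and 2, 101 and 11 with DESeq2. Limma-voom made 0, 9 and 3. With so few calls, 0 of 19 does not set this list apart from other genes. At an unadjusted P value under 0.05 the numbers were 2, 3 and 2 of 19, where 3.59%, 3.41% and 1.69% of all genes passed. Of 24 kinases and serum response factors upstream of AP-1, 1 was higher after CpG in MEC2 (0.295% of all genes were), and 0 passed in HG3 (0.135%) and PCL12 (0.0471%) in the fit on replicate pairs. At an unadjusted P value under 0.05 there were 2 in HG3, 1 in MEC2 and 2 in PCL12. Limma-voom called 0 of the 24 in each line, where it called 0, 9 and 3 genes of the whole table in HG3, MEC2 and PCL12. The gene of this list that edgeR called in MEC2 was MAP3K8, a kinase that activates the ERK pathway below Toll-like receptors. It was at 125, 131 and 66.4 CPM after CpG in MEC2 and at 65.0, 61.4 and 36.5 CPM without it (Log2FC 0.96, SE 0.21, edgeR adjusted p = 0.00246), and DESeq2 called it too (0.96, adjusted p = 4.54e-06). The call was lost without the replicate pairs (0.98, edgeR adjusted p = 1), with limma-voom (0.97, adjusted p = 0.0622), with filterByExpr (0.95, edgeR adjusted p = 0.0784), in a fit of the MEC2 libraries alone (0.95, edgeR adjusted p = 0.207) and without MEC2 replicate 1 (0.97, edgeR adjusted p = 0.0814), with nearly the same Log2FC in each. The BATF call in MEC2 was lost in the same settings, with the whole-table counts given there. MAP3K8 was higher after CpG in all 9 pairs. Its Log2FC was 0.76 in PCL12 (SE 0.21, P value 0.000236, edgeR adjusted p = 0.203) and 0.42 in HG3 (SE 0.21, P value 0.0425, edgeR adjusted p = 1). In PCL12 it was called by DESeq2 (0.76, adjusted p = 0.00912), which called 11 genes of the whole table there, and in a fit of the PCL12 libraries alone (0.76, edgeR adjusted p = 0.000758), which called 69. In PCL12 replicate 1 it was at 93.01 CPM after CpG and 45.1 CPM without it. No difference of its CpG effect between lines passed (edgeR adjusted p = 1 in each), and for MEC2 minus HG3 the 95% interval ran from -0.02 to 1.12.

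Of 20 textbook targets of AP-1, 19 had enough counts to be tested. CXCL8, which encodes the chemokine interleukin-8, was the 1 that rose in HG3 (Log2FC 1.12, SE 0.28, edgeR adjusted p = 0.0407) and the 1 that rose in MEC2 (1.72, SE 0.28, edgeR adjusted p = 5.71e-06), where 0.135% and 0.333% of all genes passed. In PCL12, 0 passed in the fit on replicate pairs (0.0471% of all genes), with DESeq2 (11 genes of the whole table) or with limma-voom (3 genes). At an unadjusted P value under 0.05 the numbers were 3 of 19 in HG3, 4 in MEC2 and 1 in PCL12, beside 3.59%, 3.41% and 1.69% of all genes. In the fit of the PCL12 libraries alone, 1 target passed there. This was CD44, an adhesion receptor, named after its values were seen (0.66, edgeR adjusted p = 0.00088), and it also passed in MEC2 without MEC2 replicate 2 (0.83, edgeR adjusted p = 0.0279). The HG3 call of CXCL8 was lost when any 1 of the 3 HG3 pairs was left out (Log2FC 0.97 to 1.34, edgeR adjusted p from 0.0543 to 0.277). It was also lost with DESeq2 (1.10, adjusted p = 0.0971), limma-voom (0.98, adjusted p = 0.991) and filterByExpr (1.13, edgeR adjusted p = 0.441). The same held without the replicate pairs (0.90) and in a fit of the HG3 libraries alone (1.17), with an edgeR adjusted p of 1 in both. Over the whole table, 43 genes passed in HG3 in the fit on replicate pairs. DESeq2 called 2, the fit without the pairs 1, and limma-voom, filterByExpr and the fit of HG3 alone 0 each. The MEC2 call of CXCL8 held with DESeq2 (1.71, adjusted p = 1.89e-06) and without any 1 pair. It was lost with limma-voom (1.71, adjusted p = 0.172), in a fit of the MEC2 libraries alone (1.70, edgeR adjusted p = 0.134) and without the replicate pairs (1.73, edgeR adjusted p = 1). In these settings 9, 3 and 1 genes of the whole table passed in MEC2. In MEC2, CXCL8 was at 20.3, 18.2 and 1.17 CPM after CpG and at 6.53, 5.10 and 0.370 CPM without it. Both libraries of replicate 3 were again the lowest, as for FOS and FOSB, and CXCL8 was higher after CpG in each of the 3 pairs. CCND1, the gene of cyclin D1, was the 1 target past edgeR's threshold for a difference of the CpG effect between MEC2 and HG3 (1.72, SE 0.37, edgeR adjusted p = 0.00479; 0.141% of all genes passed). Its Log2FC was -0.97 in HG3 (SE 0.27, edgeR adjusted p = 0.124) and 0.75 in MEC2 (SE 0.25, edgeR adjusted p = 0.367), so neither line passed by itself. The difference was 1.07 (edgeR adjusted p = 0.370) without HG3 replicate 2, whose unstimulated library had the 20.2% mitochondrial share and 21.2 CPM of CCND1 beside 4.68 and 8.02 CPM in the other 2. Without MEC2 replicate 1 it was 1.53 (edgeR adjusted p = 0.108). Without HG3 replicate 1, CCND1 also passed as lower after CpG within HG3 (-1.55, edgeR adjusted p = 0.00163). The call for MEC2 minus HG3 was also lost with DESeq2 (1.74, adjusted p = 0.216), limma-voom (1.80, adjusted p = 0.998), filterByExpr (1.70, edgeR adjusted p = 0.965) and without the replicate pairs (1.98, edgeR adjusted p = 1). In these settings 11, 0, 0 and 0 genes of the whole table passed for this difference, against 45 in the fit on replicate pairs.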

How the data were processed

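RNA was sequenced from 3 CLL cell lines with and without CpG, 18 libraries in 6 groups of 3. The values are raw read counts per gene symbol, deposited by the authors without normalization. Per the submitters' processing notes, FastQC, MultiQC, Trimmomatic, STAR and featureCounts were used on hg38. Program versions, gene annotation and duplicate removal are not given in the sources used here. The paper names a Qiagen kit and a stranded reverse protocol, the labels a Promega RNA kit and Lexogen Stranded QuantSeq libraries. Whether reads cover whole transcripts or only their ends is thus unclear, so levels were not compared between genes. Duplicate reads, where kept, make counts look more precise than they are.

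Samples were grouped by their labels. Genes with at least 10 counts over all libraries were kept (31872 from 42248 that had any count), scaled with TMM and tested with edgeR 4.0.16 (quasi-likelihood, robust) in R 4.3.3. CpG effects were fitted with 9 replicate pairs as a block (6 residual degrees of freedom, infinite prior degrees of freedom). The pairing comes from the description of the series. After removal of group means, the deviations of paired libraries correlated at 0.0928, 0.0579 and 0.203 for the HG3 pairs, at 0.0285, -0.0785 and 0.327 for those of MEC2, and at 0.212, 0.149 and 0.216 for those of PCL12. Unstimulated lines were compared with 1 mean per group (12 residual degrees of freedom). Adjustment was by Benjamini-Hochberg over every gene tested. Confidence intervals are at 95%. Alternatives were DESeq2 1.42.0, limma-voom (limma 3.58.1), RLE factors, library totals, filterByExpr, no filter, no block, single lines and left-out libraries.

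All 10 members are named, and of the other lists the genes past an adjusted p of 0.05 in a CpG contrast, plus, per member, the 2 most correlated genes (log2 CPM, prior count 2). The members and lists were chosen with earlier results of these data known. Positions are from GENCODE on GRCh38. One marker gene of the B cell list is not reported here.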

Additional observations from a re-analysis of the deposited data

Results flagged for a closer look

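Among the AP-1 genes and the lists of related genes, CCND1 passed edgeR's test of a difference in the CpG effect between MEC2 and HG3, with a difference of 1.72 (edgeR adjusted p = 0.00479), as did 45 genes of the whole table, CCND1 among them. Its Log2FC was -0.97 in HG3 (edgeR adjusted p = 0.124) and 0.75 in MEC2 (edgeR adjusted p = 0.367). The call was lost with DESeq2 (1.74, adjusted p = 0.216), limma-voom (1.80, adjusted p = 0.998), filterByExpr (1.70, edgeR adjusted p = 0.965) and no replicate block (1.98, edgeR adjusted p = 1). Over the whole table, these settings called 11, 0, 0 and 0 genes for this difference. The CCND1 call was also lost without HG3 replicate 2 (1.07, edgeR adjusted p = 0.370) and without MEC2 replicate 1 (1.53, edgeR adjusted p = 0.108).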

How the results depend on the processing

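No called value changed its sign under any alternative that was run. In MEC2, the number of AP-1 genes with a CpG effect went from 1 to 0 with no replicate block, with limma-voom, with filterByExpr and in the fit of the line alone, and ranged from 0 to 1 when 1 pair was left out. In PCL12 it went from 0 to 1 (BATF) with RLE factors and in the fit of the line alone. For the difference between MEC2 and HG3 it ranged from 0 to 1 (BATF) when 1 pair was left out. For unstimulated MEC2 against HG3 it went from 2 to 3 with DESeq2 (JUND added) and to 5 with no filter, and it ranged from 1 to 3 when 1 library was left out. For unstimulated PCL12 against HG3 it went from 1 to 2 with DESeq2, limma-voom, RLE factors and filterByExpr, to 3 with no filter, and to 0 with library totals and with PCL12 replicate 1 alone, and it ranged from 0 to 2 when 1 library was left out. For PCL12 against MEC2 it went from 1 to 2 with no filter. The causes were not tested.

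With no replicate block, in place of the pairing, 1 gene of the whole table passed in HG3, 1 in MEC2 and 0 in PCL12, against 43, 106 and 15 with the block. In MEC2, limma-voom called 9 genes of the whole table, the filterByExpr setting 5 and the fit of the line alone 3. Over all alternatives the counts were 0 to 107 for HG3, 1 to 117 for MEC2 and 0 to 69 for PCL12, and for the differences from 0 to 72 (MEC2 minus HG3), from 0 to 53 (PCL12 minus HG3) and from 0 to 15 (PCL12 minus MEC2), against 45, 22 and 4. For the unstimulated lines they ran from 2240 to 4442 (MEC2 against HG3), from 1342 to 4318 (PCL12 against HG3) and from 316 to 1411 (PCL12 against MEC2), against 3116, 3008 and 654. With the replicate number as a block across lines, JUNB in PCL12 against HG3 was no longer past the threshold (-1.08, edgeR adjusted p = 0.0904) and BATF3 was (-0.94, edgeR adjusted p = 0.0341). The median of all genes moved from that of the reported fit by up to 0.146 (log2) for PCL12 minus HG3, with PCL12 replicate 1 alone, and by up to 0.107 for MEC2 minus HG3, with library totals. FOSL1 and FOS had as few as 12 and 8 counts in a library. These were PCL12 unstimulated replicate 3 (0.279 CPM of FOSL1) and MEC2 unstimulated replicate 3 (0.228 CPM of FOS). Their total counts of 42127737 and 35101314 were above the median library.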
